A study of Mus musculus with 11 samples.

Results

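Carbonic anhydrase 1, encoded by Car1, divided the leukemias of a T-cell leukemia mouse model into 3 Car1-high and 5 Car1-low arrays, and the genes that followed this split are described here. The arrays were chosen by their measured Car1 level, so the split is a description and carries no test. Of the 8 leukemia arrays, among 11 arrays in all, those with a Car1 value of at least 4 on the log2 RMA scale (robust multi-array average) were Car1-high. They were exponential 4, chronic 2 and chronic 3. The arrays under 4 were exponential 1, 2, 3 and 5 and chronic 1.

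All leukemias came from Lckpr-TCL1A+/- mice, which are hemizygous for human TCL1A under the proximal Lck promoter, a promoter active in developing T-cells, and develop CD8+ T-cell disease. RNA was taken from splenic T-cells that had been magnetically enriched for CD8+ cells. In the chronic phase (n = 3) tumor cells made up 30 to 70% of blood and spleen at an average age of 12 months. In the exponential phase (n = 5) they exceeded 80% of blood and 90% of spleen at an average age of 15 months, and lymphocytes doubled every 12 days (SEM 0.8). The wild-type arrays (n = 3) each pooled 3 age-matched C57BL/6 mice, 9 in all, and held CD3+ pan-T-cells, so genotype and cell selection cannot be told apart in a comparison with them. The labels do not state how many mice a leukemia array held, so p-values here reflect variation among arrays, which may be technical. The transgene itself was not analysed here.

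Exponential 4, a Car1-high array, went against its CD8 label. Its Cd8a value, the alpha chain of the CD8 co-receptor, was 2.96, against 6.71 to 8.20 in the other leukemias. Its Cd8b1 value, the beta chain, was 4.33 against 8.15 to 9.21, while Cd4 was 5.18 against 1.79 to 2.59. The T-cell receptor component Cd3e was 7.48, against 6.85 to 7.47. Results are therefore given with and without this array. Over all genes, the Car1-high arrays correlated with each other at 0.947 to 0.966, the Car1-low arrays at 0.966 to 0.984, and arrays of different class at 0.946 to 0.975. Xist, the RNA of the inactive X chromosome, was 9.33 and 8.88 in exponential 4 and chronic 3 and 2.33 in chronic 2, and it was 8.59 and 7.86 in exponential 1 and 5 and 2.29 to 3.09 in the remaining Car1-low arrays, so both classes held arrays of each kind.

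Carbonic anhydrases convert carbon dioxide and water to bicarbonate and protons. Car1 and Car2 are the cytosolic forms that are abundant in red blood cells and their precursors, where they serve carbon dioxide transport. Dividing cells of any type are known by genes of DNA replication and chromosome segregation, and recently stimulated T-cells by immediate-early genes and cytokines such as interferon-gamma. In RNA from bulk cells, fewer cells of a type and less RNA per cell cannot be told apart.

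Car1 was 5.29 in exponential 4, 9.27 in chronic 2 and 7.63 in chronic 3. It was 1.92, 2.62, 1.82 and 3.03 in exponential 1, 2, 3 and 5 and 2.27 in chronic 1. The Car1-low values lay around 2.30, the median of the whole table, whereas exponential 4, the array just inside the threshold, stood 2.26 above exponential 5, the array just outside it. In the wild-type pools Car1 was 8.53, 8.82 and 9.79 (mean 9.05 ± 0.66, SD, n = 3), so chronic 2 lay within the wild-type range and the other leukemias below it. All leukemias together were lower than wild type by a log2 difference of -4.82 (SE 1.47), which did not pass the test (limma, adjusted p = 0.212). The phases differed by -3.45 (exponential minus chronic, SE 1.42), which did not pass either (limma, adjusted p = 0.795).

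A gene was counted as separated where the ranges of the 3 Car1-high and 5 Car1-low arrays did not overlap and the means differed by at least 1 on the log2 scale, which is 2-fold. Of the 19936 genes other than Car1, 99 were separated with higher values in Car1-high leukemias (0.497%) and 39 with lower values (0.196%). The median difference over all genes was -0.0008. Ranges without overlap, whatever the size of the difference, were found for 624 genes upward and 475 downward. Without exponential 4, when chronic 2 and 3 alone stood for the Car1-high class, 124 genes were separated upward and 71 downward, of which 64 and 34 belonged to the 99 and 39. Without chronic 2, 299 genes were separated in place of 138. Ranges without overlap are easier to reach with fewer arrays. Counts with an array left out, also those of the gene lists below, therefore cannot be set against the full counts. Exponential 4 held the most extreme Car1-high value for 73 of the 99 higher genes, and for 17 of the 39 lower ones.

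Leaving receptor and antibody segments aside, the largest upward difference was that of Car2, its paralog, likewise abundant in red blood cells. Car2 was 5.03 in exponential 4, 6.68 in chronic 2 and 3.88 in chronic 3. It was 2.82, 2.35, 2.66 and 2.38 in exponential 1, 2, 3 and 5 and 2.40 in chronic 1. The means, 5.19 ± 1.41 (SD, n = 3) and 2.52 ± 0.21 (SD, n = 5), differed 6.38-fold, and the wild-type pools, at 4.63 to 6.57, lay in the range of the Car1-high arrays. Rhag, the Rh-associated glycoprotein of the red cell membrane, gave the same picture. It was 3.87, 6.43 and 3.28 in exponential 4, chronic 2 and chronic 3. It was 1.86, 1.91, 2.07 and 2.02 in exponential 1, 2, 3 and 5, 1.96 in chronic 1 and 3.17 to 4.60 in wild type. For both genes every Car1-low leukemia was below every wild-type pool.

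**Figure D1:**
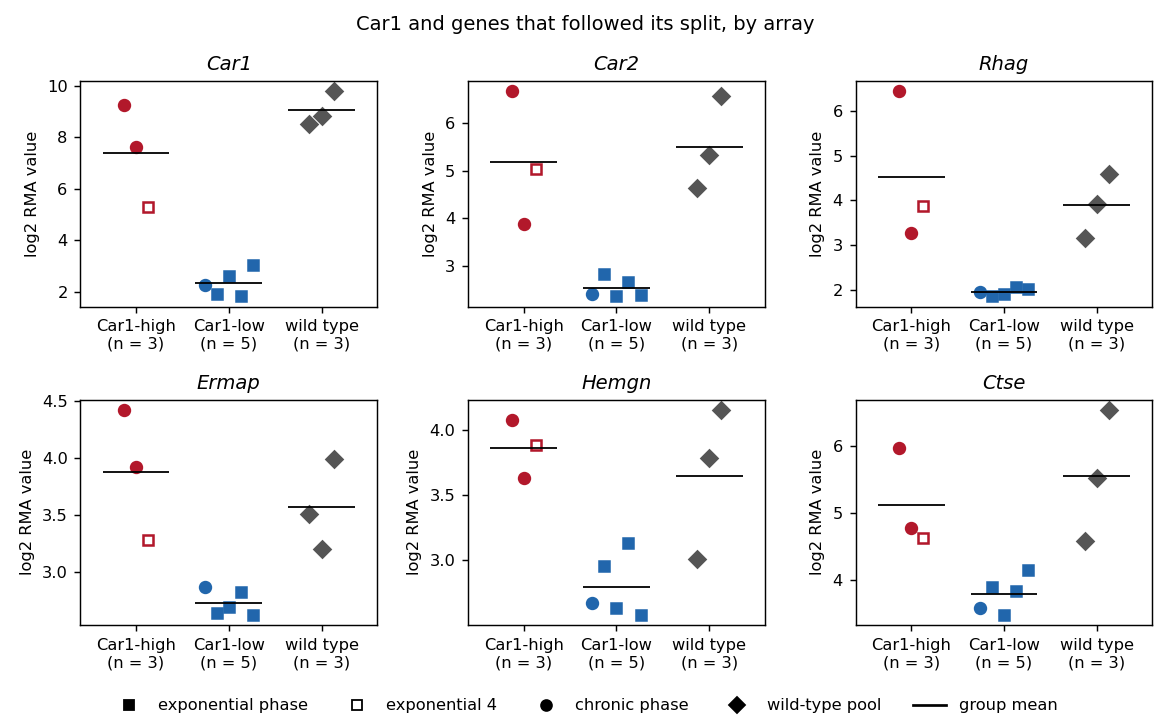
Log2 RMA values (vertical axes) of Car1, Car2, Rhag, Ermap, Hemgn and Ctse in each array, for the 3 Car1-high leukemias, the 5 Car1-low leukemias and the 3 wild-type pools (horizontal axes), with squares for the exponential and circles for the chronic phase, exponential 4 as an open square and lines at the group means. In each panel the Car1-high points lie above all Car1-low points, and the wild-type pools lie above all Car1-low points except in Hemgn, where the lowest pool is at 3.01.

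Among 23 measured erythroid genes, 3 were separated upward and 0 downward, and 21 had a higher mean in the Car1-high class. The list median of the differences was 0.37, and 0.49 without exponential 4, against -0.0008 over all genes. The separated members were Rhag, Ermap and Hemgn. Ermap, an erythroblast membrane protein, was 3.29, 4.43 and 3.92 in the Car1-high arrays, 2.63 to 2.87 in the Car1-low arrays and 3.21 to 3.99 in wild type. Hemgn, a nuclear protein of blood precursors, was 3.88, 4.07 and 3.63, against 2.58 to 3.14, and 3.01 to 4.15 in wild type. The remaining members were dimmer or overlapped. Alas2, the erythroid enzyme that begins heme synthesis, was 1.95 to 2.64 in Car1-high and 2.15 to 2.56 in Car1-low leukemias. The erythroid transcription factor Gata1 was 2.18, 2.49 and 2.62 in exponential 4, chronic 2 and chronic 3, against 1.86 to 2.15. Its ranges did not overlap, but its difference was 0.37, at values near the table median of 2.30. Klf1, another erythroid transcription factor, was 2.17 to 2.76 against 1.98 to 2.49. Slc4a1, the anion exchanger of the red cell membrane, was 3.69 in exponential 4, 3.05 in chronic 2 and 2.50 in chronic 3, against 2.26 to 2.82. Tfrc, the transferrin receptor that dividing cells use too, was 6.43 to 7.67 against 5.71 to 6.62. The list's median per array was 2.68 in exponential 4, 2.95 in chronic 2 and 2.50 in chronic 3. It was 2.19 to 2.28 in Car1-low leukemias and 2.48 to 2.84 in wild type, so the classes did not overlap by the medians. The summed linear level of the list, which the brightest members set, did overlap between the classes. It ran from 242 to 494 in Car1-high, from 198 to 247 in Car1-low and from 213.5 to 271 in wild-type arrays. The globin genes were not analysed here. The part of red cell precursors in the Car1 split was not tested.

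Genes outside the erythroid list moved with Car1 as well. Ctse, the protease cathepsin E, was 4.63, 5.97 and 4.77 in exponential 4, chronic 2 and chronic 3, against 3.48 to 4.15. Mpo, the myeloperoxidase of neutrophil precursors, was 2.84, 4.03 and 3.06, against 2.01 to 2.36, and was the 1 separated gene among 33 measured myeloid markers, whose median difference was -0.04. Without exponential 4, 3 myeloid markers were separated downward and 1 upward, with a median of -0.25. Of the 15 measured carbonic anhydrases, Car1 left aside, Car2 was the 1 that was separated, and the median difference was -0.08. The 11 measured genes of bicarbonate and acid transport held 0 separated genes and a median difference of 0.00, and the 18 measured heme and iron genes held 0 as well, with 0.12. Without exponential 4, 1 heme and iron gene was separated upward, Cpox, an enzyme of heme synthesis, at a difference of 1.62 (1.19 with all arrays).

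Over the 8 leukemia arrays, 202 genes had an SD of at least 1, and the 6 of these whose values were most like those of Car1 by Pearson's r were Aldh1a1 (0.93), Mt2 (0.91), Rhag (0.91), Car2 (0.88), Tjp1 (0.88) and Ppbp (0.87). The 3 most opposed were H2-Aa (-0.93), Plbd1 (-0.89) and Cd180 (-0.85). These are descriptions over arrays that fall into 2 classes by construction. Chronic 2 and 3 were the arrays farthest from the Car1 median, and without them exponential 4 was the only Car1-high array left. The r without them, which rested largely on exponential 4, was 0.94 for Rhag, 0.87 for Car2 and -0.72 for Cd180. It was 0.50 for Aldh1a1, 0.31 for Mt2, 0.22 for Ppbp, -0.49 for Tjp1, -0.50 for H2-Aa and -0.09 for Plbd1. The likeness of these 6 genes rested on the chronic arrays. Tjp1 encodes a tight junction protein and Plbd1 a phospholipase-like protein of granulocytes. Ppbp, a platelet chemokine, was 5.94 and 6.29 in chronic 2 and 3 but 2.52 in exponential 4, with 1.66 to 3.92 in Car1-low leukemias. Aldh1a1, a retinal dehydrogenase, was 4.68 and 3.43 in chronic 2 and 3 but 2.36 in exponential 4, against 1.63 to 2.38. Mt2, a metallothionein that binds zinc, was 6.29 and 5.90, but 3.92 in exponential 4, against 2.84 to 3.99.

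The cell-cycle genes were the list with the most separated members. Of 44 measured, 20 were separated upward and 0 downward, and 43 had the higher mean in Car1-high leukemias, with a median difference of 1.02, which is about 2-fold. Without exponential 4 the median fell to 0.64 and 16 members were separated. The list's median per array was 5.05 in exponential 4, 3.89 in chronic 2 and 4.16 in chronic 3, against 3.07 to 3.44 in Car1-low leukemias and 3.12 to 3.48 in wild type. The summed linear level, which the brightest members set, ran from 3102 to 5376 in Car1-high and from 1981 to 3467 in Car1-low leukemias, so the classes overlapped on that scale. By the medians the Car1-low leukemias lay with the wild-type pools, unlike for Car1, although 4 of the 5 were arrays of the exponential phase. Which cells held the cell-cycle RNA was not tested.

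Mki67, which encodes the proliferation antigen Ki-67, was 8.48 in exponential 4, 6.78 in chronic 2 and 7.76 in chronic 3. It was 5.31, 5.65, 5.32 and 5.86 in exponential 1, 2, 3 and 5, 5.27 in chronic 1 and 5.18 to 6.39 in wild type. The means, 7.67 ± 0.85 (SD, n = 3) and 5.48 ± 0.26 (SD, n = 5), differed 4.57-fold, and both chronic Car1-high arrays were above every exponential Car1-low array. Bub1, a kinase of the mitotic spindle checkpoint, was 6.86, 5.22 and 5.74. It was 3.30, 4.11, 2.76 and 3.89 in exponential 1, 2, 3 and 5 and 4.22 in chronic 1. Its difference was 2.28, and 1.82 without exponential 4. Knl1, the kinetochore scaffold that binds Bub1, was 7.45, 6.07 and 6.26, against 3.71 to 4.71. Ccna2, the cyclin of S phase and G2, was 7.02, 6.18 and 6.44, against 3.93 to 5.11.

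Top2a, the topoisomerase that untangles replicated DNA, was 9.08, 7.16 and 8.08, against 5.54 to 7.06, so chronic 2 cleared the highest Car1-low array, exponential 2, by only a narrow margin. With the mean of all its rows its difference fell from 1.87 to 0.94, under the limit of 1, and it was then no longer separated. The motors Cenpe and Kif11, which move chromosomes and hold the spindle poles apart, had differences of 1.87 and 1.86. Hmmr, a spindle-associated receptor for hyaluronan, Shcbp1, an adaptor of the midbody, and Ncapg2, a subunit of condensin II, had differences of 2.01, 2.06 and 1.86. Rrm2, the ribonucleotide reductase subunit that supplies deoxynucleotides, was 6.16, 6.28 and 6.66, against 3.83 to 5.02, and it was the 1 gene among the 99 for which all wild-type pools (5.25 to 5.43) lay between the classes. Cdk1, the kinase that drives mitosis, was 5.06, 4.02 and 3.67, against 2.94 to 3.34. Its difference of 1.08 fell to 0.68 without exponential 4, and it was then no longer separated.

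**Figure D2:**
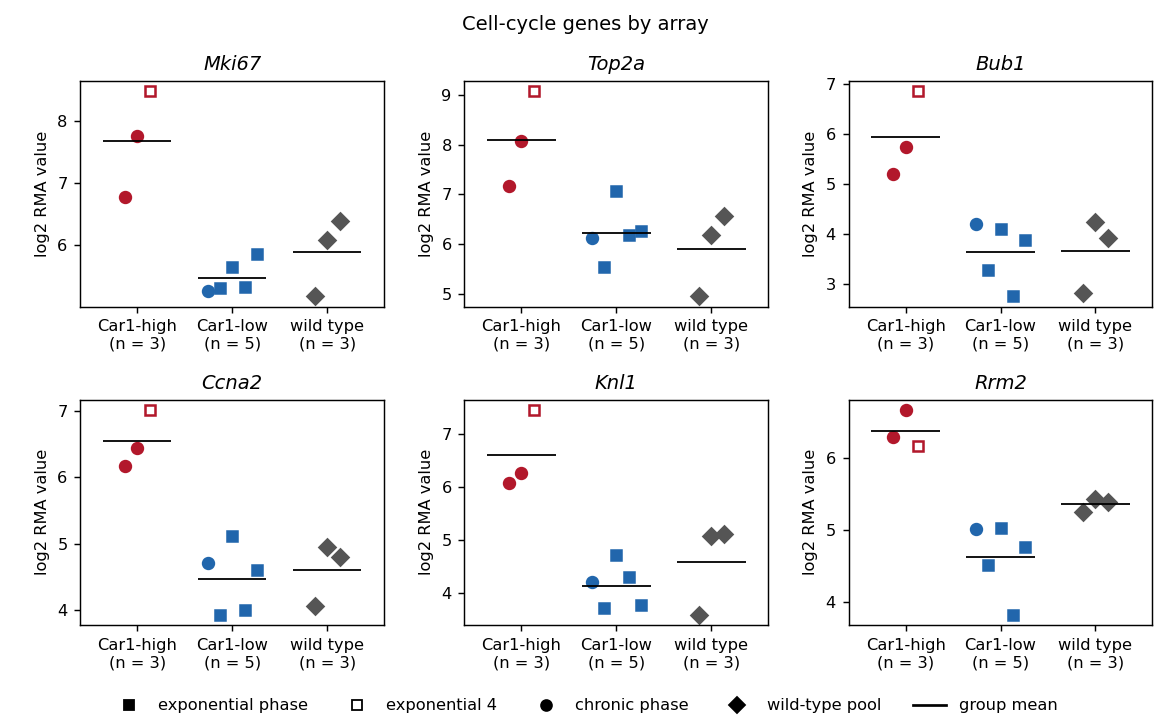
Log2 RMA values (vertical axes) of the cell-cycle genes Mki67, Top2a, Bub1, Ccna2, Knl1 and Rrm2 in each array of the 3 Car1-high leukemias, 5 Car1-low leukemias and 3 wild-type pools (horizontal axes), with squares for the exponential and circles for the chronic phase, exponential 4 as an open square and lines at the group means. Exponential 4 is the highest point for every gene but Rrm2, and all wild-type pools lie below all Car1-high points.

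The promoters of the separated genes were read for short motifs, and 3 windows that held motifs are shown, from the erythroid and cell-cycle genes. They do not stand for these groups, since the windows of Hemgn and Knl1 held none and that of Ermap a CCAAT box alone. The windows hold the 250 bases before the annotated start in RefSeq, build GRCm38.p6, and capitals mark a CCAAT box (CCAAT), a cell-cycle homology region core (TTTGAA) or a GATA motif (AGATAA) on either strand. No promoter of Car1 or Car2 was in the table.
Rhag, chr17:40810899-40811148, strand plus: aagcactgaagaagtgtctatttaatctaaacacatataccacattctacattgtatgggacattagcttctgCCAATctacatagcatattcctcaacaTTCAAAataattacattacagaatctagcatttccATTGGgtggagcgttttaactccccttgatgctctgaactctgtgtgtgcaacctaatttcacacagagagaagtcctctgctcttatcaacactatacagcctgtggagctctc
Top2a, chr11:99024190-99024439, strand minus: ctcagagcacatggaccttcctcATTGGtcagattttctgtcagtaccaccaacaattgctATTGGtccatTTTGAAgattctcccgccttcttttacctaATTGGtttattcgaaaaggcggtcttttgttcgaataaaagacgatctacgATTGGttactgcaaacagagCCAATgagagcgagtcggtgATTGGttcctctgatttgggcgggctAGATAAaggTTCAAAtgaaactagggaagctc
Cdk1, chr10:69352913-69353162, strand minus: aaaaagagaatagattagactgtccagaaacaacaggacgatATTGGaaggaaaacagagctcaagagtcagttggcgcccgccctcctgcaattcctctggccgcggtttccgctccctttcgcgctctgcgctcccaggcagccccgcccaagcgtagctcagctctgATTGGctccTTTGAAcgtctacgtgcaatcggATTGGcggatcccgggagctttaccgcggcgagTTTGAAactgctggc
A CCAAT box was present in 33.9% of all 32851 promoter windows, in 63.8% of the 94 windows that matched the higher genes (85 of 99 genes matched) and in 16 of the 18 windows of the separated cell-cycle genes (88.9%). It was present in 37.8% of the 37 windows of the lower genes (27 of 39 matched). The TTTGAA core was in 16.0% of all windows, 27.7% of those of the higher genes and 0% of those of the lower genes. The AGATAA motif was in 9.99%, 5.32% and 16.2%, and the cyclic AMP response element TGACGTCA in 1.55%, 1.06% and 2.70%. None of the motifs holds another, and a match describes the letters of the window alone.

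Of the 39 lower genes, Ifng, the cytokine interferon-gamma, had the largest difference. It was 2.38 in exponential 4, 5.12 in chronic 2 and 5.67 in chronic 3. It was 7.65, 7.04, 8.98 and 7.21 in exponential 1, 2, 3 and 5 and 7.90 in chronic 1, and 6.56 to 7.61 in wild type. The means, 4.39 ± 1.76 (SD, n = 3) and 7.76 ± 0.76 (SD, n = 5), differed 10.3-fold, and without exponential 4 the difference was -2.36. Atf3, a stress-induced transcription factor, was 2.90, 2.53 and 3.63. It was 5.74, 4.51, 5.33 and 6.34 in exponential 1, 2, 3 and 5, 4.37 in chronic 1 and 5.24 to 6.00 in wild type. For both genes the Car1-low leukemias and wild type overlapped, and the Car1-high arrays were below both.

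Of 27 measured immediate-early and activation genes, 6 were separated downward (Nr4a1, Atf3, Cd69, Ppp1r15a, Rel and Tnfaip3) and 0 upward, and 25 had the lower mean, with a median difference of -0.54, and of -0.77 without exponential 4. Medians of the list per array did overlap, since exponential 2, at 3.61, was below exponential 4 at 3.86 and chronic 3 at 3.98, while chronic 2 was lowest at 2.99. The summed linear level ran from 533 to 1151 in Car1-high and from 1111 to 3261 in Car1-low leukemias, so the classes overlapped here too. Cd69, the early activation antigen that also holds T-cells in tissue, was 6.93, 7.41 and 8.61 in exponential 4, chronic 2 and chronic 3. It was 10.16, 8.94, 9.77 and 9.28 in exponential 1, 2, 3 and 5 and 9.70 in chronic 1. Tnfaip3, the ubiquitin-editing inhibitor of NF-kappaB, was 5.19, 5.83 and 6.13, against 6.28 to 8.23, and 8.03 to 9.27 in wild type. Rel, an NF-kappaB subunit, was 5.69 to 6.34 against 6.52 to 8.20. Nr4a1, a nuclear receptor induced by T-cell receptor signals, was 2.48 to 2.72 against 2.88 to 5.65. Ppp1r15a, which restores translation after stress, was 2.77 to 3.25 against 3.45 to 4.75.

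Ccr7, the chemokine receptor that guides T-cells to lymph nodes, was 5.27, 4.58 and 4.30 in the Car1-high arrays, against 5.44 to 7.50. It was the 1 separated member of 19 measured naive and memory homing genes, whose median difference was -0.02. Klf6, a zinc finger transcription factor, was 5.14, 5.75 and 5.95, against 6.38 to 8.58, and 7.55 to 8.42 in wild type. Atp1b1, the beta subunit of the sodium pump, was 3.21 to 3.63 against 4.36 to 6.51. Crip1, a small LIM protein, was 4.92 to 5.01 against 6.24 to 7.40, the tightest Car1-high values among these genes. Plac8 and Plek, the latter a target of protein kinase C in blood cells, were lowest in exponential 4, at 4.41 and 4.39. Plek was 7.50 and 7.30 in chronic 2 and 3, and without exponential 4 its difference of -0.81 no longer reached 1. Gpr141b, an orphan receptor, was 2.78 to 4.30 against 4.39 to 6.30. Irf1, a transcription factor induced by interferon, was 3.71, 4.50 and 4.16, against 4.87 to 6.24, and it was the 1 separated gene of 32 measured interferon response genes, whose median difference was -0.33. Btla, an inhibitory receptor, was 5.07 to 5.96 against 6.10 to 7.16, the 1 separated gene of 12 inhibitory receptors.

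**Figure D3:**
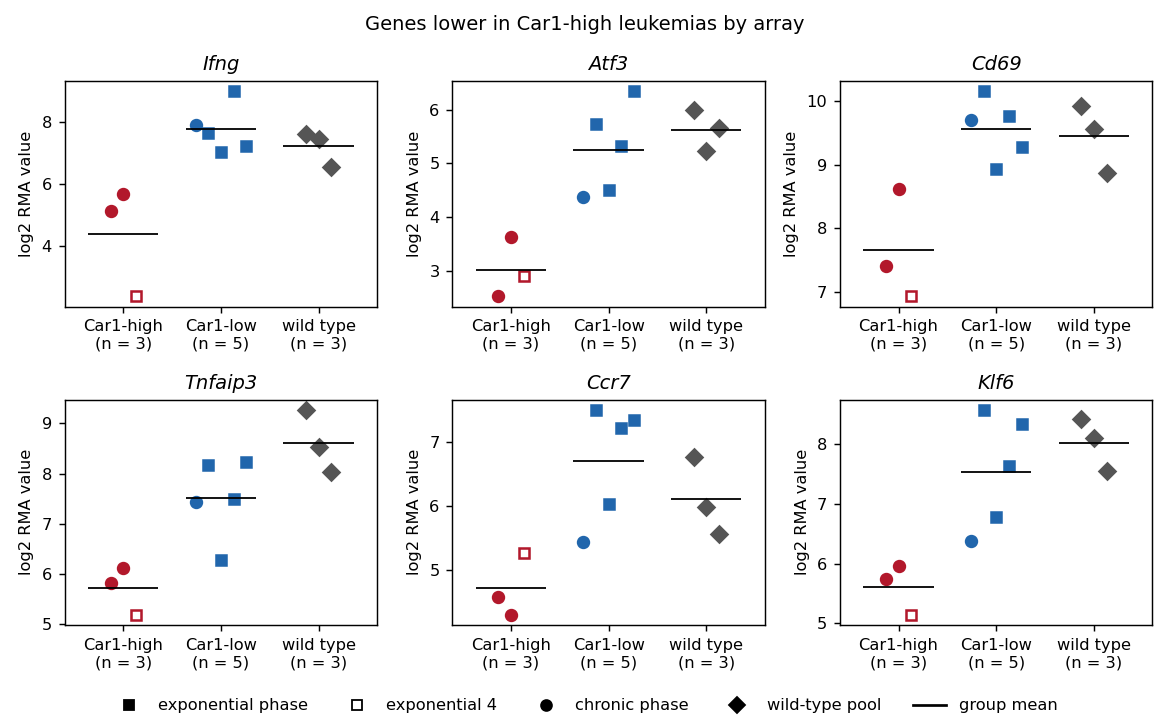
Log2 RMA values (vertical axes) of Ifng, Atf3, Cd69, Tnfaip3, Ccr7 and Klf6 in each array of the 3 Car1-high leukemias, 5 Car1-low leukemias and 3 wild-type pools (horizontal axes), with squares for the exponential and circles for the chronic phase, exponential 4 as an open square and lines at the group means. The Car1-high points lie below all Car1-low points in each panel, and all wild-type pools lie above all Car1-high points.

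All 18 measured B-cell markers had a lower mean in the Car1-high class, with a median difference of -0.79 (-0.76 without exponential 4), and 1 of them, Cd74, the invariant chain of MHC class II, was separated. Without exponential 4, 5 were separated. Ms4a1, which encodes CD20, was 6.07, 3.43 and 5.10 in exponential 4, chronic 2 and chronic 3, against 4.88 to 7.91, and Bank1, a B-cell scaffold, was 4.70, 2.75 and 3.53, against 3.74 to 7.12. Cd180, a B-cell receptor of the Toll family, was 3.80, 2.83 and 3.54, against 4.11 to 6.16. H2-Aa, a chain of MHC class II, was 6.56 in exponential 4 but 3.01 and 4.61 in chronic 2 and 3, against 6.36 to 7.66. The summed linear level of the B-cell list ran from 107 to 321 in Car1-high and from 271 to 926 in Car1-low leukemias, which overlapped, and none of its members was at 0, since array values have no 0. The part of B-cells in these differences was not tested.

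Of 11 measured plasma cell markers, 0 were separated over all 8 arrays and 9 had the higher mean, with a median difference of 0.49. Without exponential 4, 4 were separated upward and the median was 0.94. Jchain, which joins secreted antibodies, was 7.70 in exponential 4, 9.49 in chronic 2 and 10.20 in chronic 3. It was 8.06, 6.24, 8.13 and 7.77 in exponential 1, 2, 3 and 5, 6.44 in chronic 1 and 9.20 to 11.13 in wild type. The segment Igkv6-20 of the antibody kappa chain was 5.79, 7.02 and 9.12, against 3.49 to 5.61, with the highest value in chronic 3. Hsp90b1 and Pdia4, chaperones of the endoplasmic reticulum, and Lman1, a cargo receptor, were separated upward and were picked after their values were seen. Hsp90b1 was 9.66, 10.04 and 11.98, against 9.07 to 9.35, Lman1 was 5.12, 5.67 and 8.05, against 4.40 to 4.93, and Pdia4 was 6.06, 6.42 and 7.99, against 5.63 to 5.95. The summed linear level of the plasma cell list was 333 to 2043 in Car1-high, 211 to 469 in Car1-low and 856 to 2797 in wild-type arrays, and its part in these values was not tested.

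**Figure D4:**
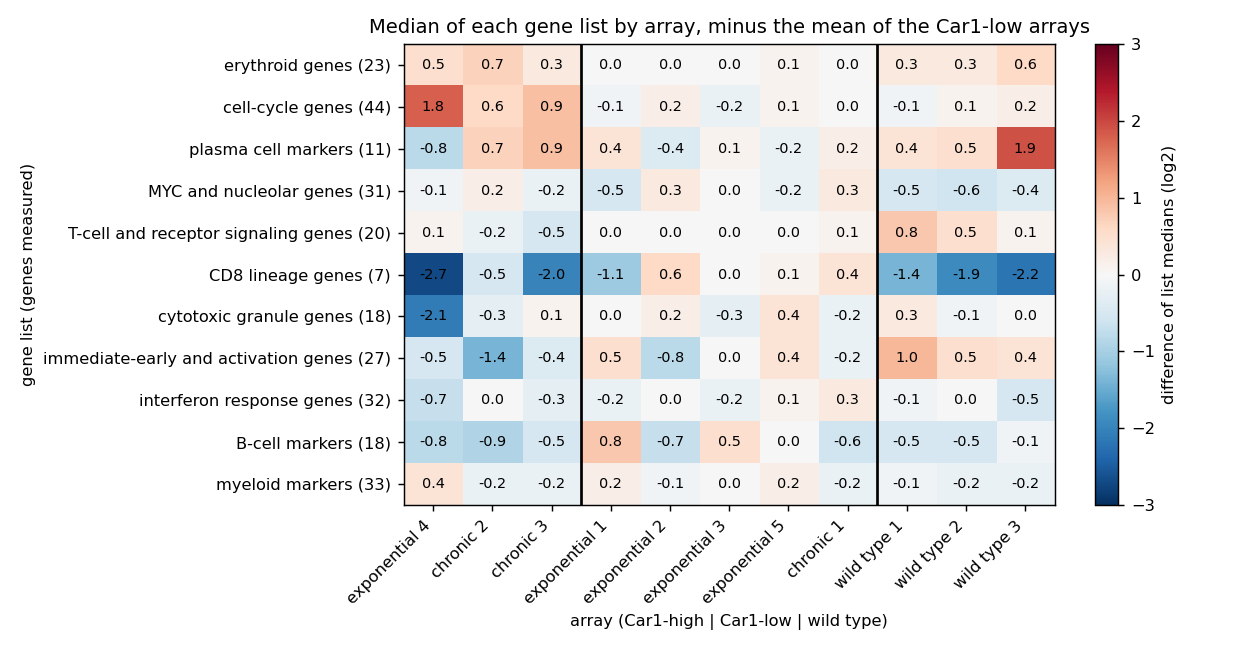
Median log2 value of each gene list (rows, with the number of genes measured) in each of the 11 arrays (columns), given as the difference from the mean of the 5 Car1-low arrays and coloured from blue (lower) to red (higher), with lines between the Car1-high, Car1-low and wild-type arrays. Exponential 4 holds the highest median of cell-cycle genes (5.05 before subtraction) and the lowest of CD8 lineage genes (2.96), and the B-cell and immediate-early lists vary among the Car1-low arrays too.

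Of 20 measured T-cell and receptor signaling genes, 0 were separated, with a median difference of -0.06, which was larger, at -0.30, without exponential 4. The 7 CD8 lineage genes had a median difference of -1.49, which was -0.38 without it, and 0 were separated in either case. The cytotoxic granule genes had -0.56 with and 0.01 without it. Nkg7, a protein of cytotoxic granules, was 2.75 in exponential 4 and 9.15 and 8.46 in chronic 2 and 3, against 8.42 to 9.24, and Gzmb, granzyme B, was 2.48, 7.58 and 7.08, against 5.43 to 8.47. Ccl5, a chemokine of memory CD8 cells, was 4.69, 11.13 and 10.21, against 8.48 to 9.92. Trgv1, a variable segment of the gamma receptor chain, was 9.31 in exponential 4, 3.39 in chronic 2 and 5.52 in chronic 3. It was 1.89 to 3.01 in Car1-low leukemias and 5.01 to 5.51 in wild type, so it was separated upward, and it remained so without exponential 4.

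Other genes followed in this model overlapped between the classes. Ctla4, an inhibitory receptor, was 3.85 to 6.13 in Car1-high and 4.07 to 7.57 in Car1-low leukemias, all below wild type at 9.62 to 10.37, and Slamf6, a receptor of T-cell contacts, was 3.99 to 6.61 against 4.42 to 5.64. Penk, an opioid precursor, was 2.30 to 4.27 against 2.56 to 3.73, below 5.94 to 6.42 in wild type. The oncogene Myc was 7.32 to 8.45 against 8.39 to 9.42, and the 31 measured MYC and nucleolar genes held 0 separated genes with a median difference of -0.04. Lyz2, the lysozyme of myeloid cells, was 6.36, 3.62 and 2.13, against 2.54 to 6.05. Cxcr6, a homing receptor of tissue T-cells, was 6.29 and 6.28 in chronic 2 and 3, as in wild type (6.47 to 6.60), but 3.11 in exponential 4, against 2.85 to 5.28. For Lyz2 and Cxcr6 the Car1-high arrays lay on both sides of most Car1-low arrays.

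The other lists held 0 separated genes. Their median differences were -0.33 for 19 NK receptors, -0.25 for 10 NK cell markers, -0.20 for 22 cytokine receptors and -0.13 for 22 glycolysis and hypoxia genes. They were -0.08 for 14 dendritic cell markers, -0.05 for 19 effector transcription factors and -0.03 for 21 CD4 helper and regulatory T-cell genes. They were 0.15 for 10 platelet and megakaryocyte markers, 0.08 for 10 innate-like and gamma-delta T-cell genes and 0.04 for 11 neuropeptide and hormone genes. Apart from these lists, the 12 inhibitory receptors, of which Btla was separated downward, had a median difference of -0.19. Without exponential 4, 2 effector transcription factors, 1 NK receptor and 1 platelet marker were separated upward, and 1 dendritic cell marker and 1 CD4 helper or regulatory T-cell gene downward.

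The wild-type pools placed the split. Among the 99 higher genes, 21 had every wild-type pool above every Car1-low leukemia, Car2, Rhag, Ermap, Ctse, Hsp90b1 and Trgv1 among them. For 66 every wild-type pool was below every Car1-high leukemia, and these included Mki67, Bub1, Knl1 and Top2a. Rrm2 belonged to both sets and 13 to neither. Among the 39 lower genes, 20 had all wild-type pools above all Car1-high leukemias, 13 had them below all Car1-low leukemias, 1 both and 7 neither. In the test of all leukemias against wild type, 144 of 19937 genes were called (0.722%, limma, adjusted p under 0.05 and at least 1.5-fold), 56 higher and 88 lower. The 144 became 273 without exponential 4, 89 without exponential 3, 50 without wild type 1 and 63 without wild type 3. Of the 138 separated genes, 0 were among the 144. These were chosen for a wide split within the leukemias, which raises the spread in this test, so the 0 is no result about them. In the test of exponential against chronic phase, 0 genes were called (0%), with 1246 at an unadjusted p under 0.05 and a smallest adjusted p of 0.236, and without chronic 1 there were 2. Of the 138 separated genes, 13 had an unadjusted p under 0.05 between the phases (limma), beside 1246 of all 19937 genes. These are counts only, as the separated genes were chosen by values of the same arrays.

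The split was set beside itself in each phase, in comparisons that share no array. Chronic 2 and 3 were separated from chronic 1 at 354 genes (1.78%), 159 higher and 195 lower. Exponential 4 was separated from the other exponential arrays at 699 genes (3.51%), 427 higher and 272 lower. Of the 354, 243 had the same sign in the exponential phase (68.6%), and of the 699, 460 had the same sign in the chronic phase (65.8%), against 51.9% of all genes. At a difference of at least 2, the chronic share was 51.8% (29 of 56), no higher than that of all genes, and the exponential share 68.5% (135 of 197). Across all genes, which are not independent replicates, Pearson's r between the phases was 0.19 and Spearman's rho 0.098. In each phase 48 genes were separated upward and 48 downward in the same way, which is 96 of 354 and 96 of 699, and 13 were separated in opposite ways. The upward genes included Car2, Rhag, Hemgn, Mki67, Bub1, Top2a and Trgv1, and the downward ones Ifng, Atf3, Cd69, Tnfaip3, Nr4a1, Irf1 and Ccr7. Xist was among the 48 upward genes, with the values given above. A comparison with 1 array on a side has no replicate check there.

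**Figure D5:**
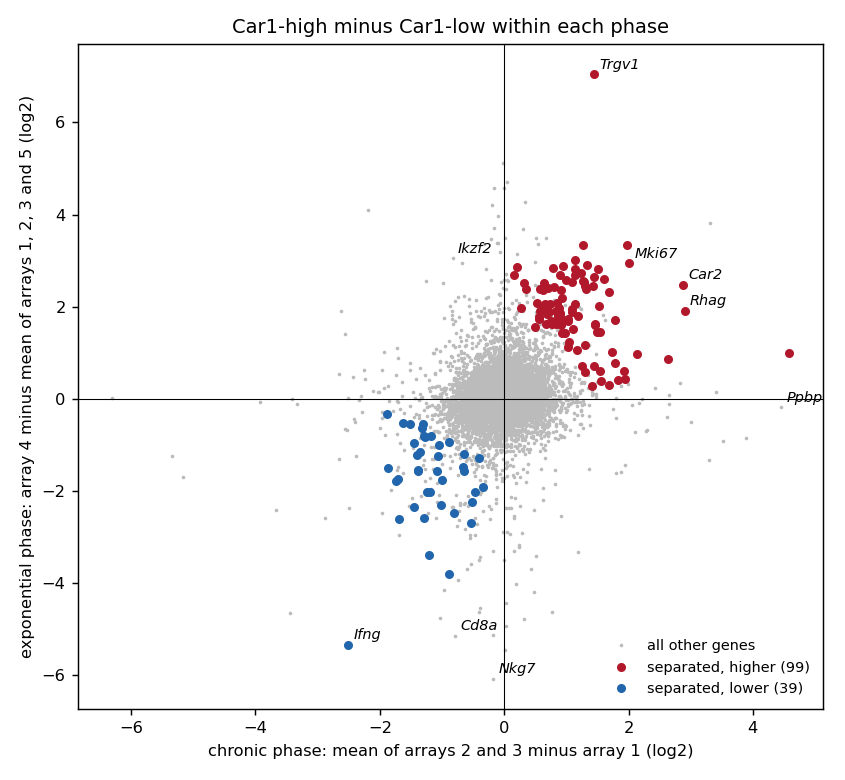
Log2 difference of each of 19936 genes between Car1-high and Car1-low leukemias within the chronic phase (horizontal axis, chronic 2 and 3 minus chronic 1) and within the exponential phase (vertical axis, exponential 4 minus exponential 1, 2, 3 and 5). The 99 genes separated upward over both phases (red) and the 39 separated downward (blue) were selected for their place and lie in opposite quadrants, while Cd8a (-0.79 and -5.14) and Nkg7 (-0.17 and -6.07) lie near the vertical axis line, as only exponential 4 was low.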

How the data were processed

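The deposited values were log2 expression values from the Affymetrix Mouse Gene 1.0 ST array, which the authors made by RMA background correction and quantile normalization with the affy package of R, whose version the sources used here do not give. All arrays had an equal distribution, with a median of 2.30. Of the 34760 rows, the 21640 with exactly 1 gene symbol in the platform annotation were used. A further 1321 had several symbols and 11799 had none. Each of the 954 genes present more than once was represented by its brightest row, giving 19937 genes, dim ones included. Array values carry no read depth, so precision depends on how many arrays there were.

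Arrays were classed by Car1 at a value of 4, and a gene was separated where the classes did not overlap and their means differed by at least 1. The comparisons by label were the phases with each other and the 8 leukemias with wild type, each fitted on its own arrays by lmFit and eBayes of limma 3.58.1 (R 4.3.3). Genes were called at a Benjamini-Hochberg adjusted p under 0.05 over all genes and a fold of at least 1.5. The fit and the separation rule were tested on simulated data. The split, the 26 gene lists and the named genes were chosen with earlier results of these data known.

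Named were the 12 separated genes highest and the 12 lowest in the Car1-high class (receptor and antibody segments, clone names and pseudogenes left out), the 6 most like and the 3 most opposed to Car1, at most 4 members per list by size of difference, and a set of T-cell and marker genes. Cd74, Cdk1, Ctse, Gata1, Hsp90b1, Igkv6-20, Klf1, Lman1, Nr4a1, Pdia4, Ppp1r15a, Rel, Rrm2, Tfrc, Trgv1 and Xist were added after their values were seen. Promoter sequences were those of RefSeq, build GRCm38.p6. Alternatives were a filter that left out the dimmest 50% of rows, averaging the rows of each gene, cyclic loess, other settings of the fit, other sizes of difference and leaving out single arrays.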

Additional observations from a re-analysis of the deposited data

Results flagged for a closer look

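In the 5 exponential arrays, the gap of an array to the nearest other was taken as a share of the range of all 5. An array was looked at again where this share exceeded 0.71, which chance gives in about 1 in 20 groups for genes not chosen by value. Among 72 genes examined, 18 met this, and the array was exponential 4 in 14. Many of the 72 were named by their values, so these counts cannot be set against that rate. Rhag, Trgv1, Plac8, Mki67, Car2, Plek, Cdk1 and Knl1 were separated, which by itself puts exponential 4 beyond the other exponential arrays. The shares for exponential 4 were 0.95 for Cd8a, 0.912 for Slc4a1, 0.905 for Cd4, 0.897 for Rhag, 0.884 for Trgv1 and 0.874 for Nkg7. They were 0.837 for Plac8, 0.828 for Mki67, 0.827 for Car2, 0.827 for Cd8b1, 0.817 for Plek, 0.814 for Cdk1, 0.732 for Knl1 and 0.724 for Ccl5. The other 4 were Cxcr6 (0.813) and Gata1 (0.79) in exponential 1, Jchain (0.776) in exponential 2 and Ppbp (0.75) in exponential 5.

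For 6 genes, Car1-high minus Car1-low had opposite directions in the phases with every array on its side, and the difference between phases was not tested. In the chronic and the exponential phase, the log2 differences were 0.776 and -4.62 for Ccl5, 0.322 and -4.77 for Gzmb, and 2.61 and -0.393 for Tjp1. They were -0.685 and 2.94 for Cd4, -0.831 and 1.74 for Slamf6, and -0.415 and 0.124 for Cd3e. In the exponential phase each rests on exponential 4 alone.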

How the results depend on the processing

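The 138 separated genes became 12 when the means had to differ by at least 2 and 319 at 1.5-fold, and 142 to 299 with each array left out in turn (299 without chronic 2). Fewer arrays make ranges without overlap easier to reach, so the rise with an array left out says nothing about that array. The share of genes separated within the chronic phase that kept their sign in the exponential phase fell from 68.6% to 51.8% at a difference of at least 2, with 29 of 56 genes, which is no higher than the 51.9% of all genes. Exponential against chronic gave 0 calls under the alternatives that kept all arrays, and 0 to 2 with an array left out (2 without chronic 1). All leukemias against wild type gave 144 calls, 124 to 181 under the alternatives with all arrays other than the block below, and 50 to 273 with an array left out. The cause of the shifts in these calls was not tested.

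Same-numbered arrays did not deviate together (correlations of -0.0371 to 0.18), so the numbers do not pair the arrays. With the replicate number as a block (replicate block), 264 genes were called for all leukemias against wild type and 0 for exponential against chronic. No separated named gene changed sign under any alternative. Where ranges do not overlap, leaving out an array, the filter or another size of difference cannot turn the sign. Only averaging the rows and cyclic loess could have done so. Of the named genes that overlapped, those with a difference over 0.5 that turned without exponential 4 were Ccl5 (-0.75 to 1.24), Cd4 (0.68 to -0.41), Gzmb (-1.49 to 0.13), Ikzf2 (0.68 to -0.45), Itgb3 (0.52 to -0.15) and Tox (0.69 to -0.11), and Slpi (1.24 to -0.05) turned without chronic 3. Top2a moved by more than the spread between arrays, to 0.94 with the mean of all its rows, and was then not separated. Among the list medians under the alternatives, 277 stayed within that spread and 9 did not. Of these, the T-cell, CD8 lineage, CD4 and cell-cycle medians moved without exponential 4. The 3 and 5 arrays of the classes limit all values.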
